A study of Mus musculus with 12 samples.

Results

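Intestinal alkaline phosphatases were described by the 3 mouse genes Akp3, Alpi and Alpl, followed through 12 RNA sequencing libraries of proximal ileal epithelium. The genes were picked from the 46078 in the files because Akp3 was among the largest falls at the highest dose of the dioxin TCDD, so the Akp3 contrast with vehicle is given as a description and was not tested. TCDD is a persistent pollutant whose receptor in cells is AhR, the aryl hydrocarbon receptor, a transcription factor switched on by its ligands. Male C57BL/6 mice received sesame oil vehicle or TCDD at 3, 10 or 30 µg/kg by oral gavage every 4 days, 7 administrations in all, from 28 to 56 days of age. Tissue was taken on day 28, with 3 libraries per dose. The epithelium was scraped and not sorted, so fewer cells of a type and less RNA per cell cannot be told apart. Per library, 11695887 to 22180274 counts were assigned to genes, and a count of 3, the floor used for detection, equalled 0.139 to 0.267 CPM (reads of a gene relative to the effective library size). Fabp6, a defining gene of ileal enterocytes, was near 0 in 9 of the 12 libraries, so the ileal label was not borne out by it outside the 3 µg/kg group. Such floors, and the intervals on counts below, cover counting error only.

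Alkaline phosphatases are membrane enzymes that remove phosphate groups from many substrates. In the small intestine they sit on the brush border of absorptive enterocytes, held by a glycosylphosphatidylinositol (GPI) anchor, and are known for dephosphorylating bacterial lipopolysaccharide and for a part in fat absorption and phosphate handling. In mouse, Akp3 encodes the form best known from duodenum, Alpi (formerly Akp6) encodes a form found along the gut, and Alppl2 encodes the embryonic form. Alpl encodes the tissue-nonspecific enzyme of bone, liver and kidney, which also acts on pyrophosphate and vitamin B6 phosphate.

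Akp3 (ENSMUSG00000036500) lies on chr1:87124973-87127912 of GRCm38, plus strand. Alpi (ENSMUSG00000079440) lies on chr1:87098002-87101606, minus strand, its start 23.4 kb from that of Akp3 and pointing away from it. Alppl2 (ENSMUSG00000026246, chr1:87086694-87089928, minus strand) is next to Alpi, whereas Alpl (ENSMUSG00000028766) lies on chr4:137741733-137796384, minus strand. The longest open reading frames of Akp3 and Alpi were identical at 81.8% of 1653 aligned bases. Alppl2 shared 78.4% with Akp3 and 81.0% with Alpi, and Alpl shared 64.3 to 66.0% with the other three. Of 2233 windows of 50 bases in Akp3 transcripts, 35 (1.57%) also occurred in Alpi. Reads lying wholly in such windows have no single place, and reads with several alignments were kept apart from the gene counts. Reads of the latter kind made up 32.5 to 34.6% in vehicle and 36.2 to 38.8% at 30 µg/kg.

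The bases upstream of Akp3 and Alpi are shown because the neighbouring genes differed in their readout. All 4 genes were matched by symbol to RefSeq start sites (GRCm38.p6), Alpl with 2 entries. Each line gives the 250 bases before the start, on the strand of the gene, and capitals mark the core GCGTG of the dioxin response element, searched on both strands. The Akp3 window is chr1:87124704-87124953 and the Alpi window is chr1:87101607-87101856.
Akp3: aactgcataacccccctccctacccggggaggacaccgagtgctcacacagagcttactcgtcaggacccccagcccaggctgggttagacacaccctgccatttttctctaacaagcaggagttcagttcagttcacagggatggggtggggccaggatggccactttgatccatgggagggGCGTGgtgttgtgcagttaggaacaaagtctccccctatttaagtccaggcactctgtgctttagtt
Alpi: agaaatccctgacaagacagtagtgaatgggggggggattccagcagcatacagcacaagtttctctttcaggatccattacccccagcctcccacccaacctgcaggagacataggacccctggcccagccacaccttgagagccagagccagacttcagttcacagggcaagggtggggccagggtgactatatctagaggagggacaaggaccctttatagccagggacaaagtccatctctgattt
Akp3 held 1 match, from 67 to 63 bases before the start, and the windows of Alpi, Alppl2 and Alpl held 0. Of 32851 such windows, 28.2% held the core. A match is a description of these letters and says nothing about binding.

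The upstream windows of the 3 genes on chromosome 1 shared 2 words of 13 bases in the same order. They are shown in capitals because they are what Akp3, Alpi and Alppl2 have in common in front of their starts.
Akp3: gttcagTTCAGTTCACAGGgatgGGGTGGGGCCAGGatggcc
Alpi: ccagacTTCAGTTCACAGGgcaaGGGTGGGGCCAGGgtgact
Alppl2: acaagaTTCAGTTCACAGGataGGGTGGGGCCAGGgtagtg
The stretches are chr1:87124826-87124867, chr1:87101665-87101706 and chr1:87090013-87090053. The first word occurred in 5 and the second in 10 of the 32851 windows, on the strand of the gene. Both counts include the 3 windows of Akp3, Alpi and Alppl2. The words were found by comparing these 3 windows and do not overlap the GCGTG of Akp3.

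Alpi was the main alkaline phosphatase transcript of the tissue. Per kilobase of merged exon, its level in vehicle was 392 ± 25.0 CPM per kb (SD, n = 3), against 10.9 ± 1.56 for Akp3, 0.268 ± 0.0875 for Alppl2 and 0.0445 ± 0.0335 for Alpl. The order of the first 2 held in every group, and Alpi was 35.9 times Akp3 in vehicle and 477 times Akp3 at 30 µg/kg on this scale. Alppl2 and Alpl stood near the detection floor in every group, and their order was not fixed, since Alpl averaged 0.132 ± 0.0439 CPM per kb and Alppl2 0.0989 ± 0.0550 at 30 µg/kg. The name intestinal alkaline phosphatase therefore fits the levels of Akp3 and Alpi, while Alpl was barely detected.

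**Figure D1:**
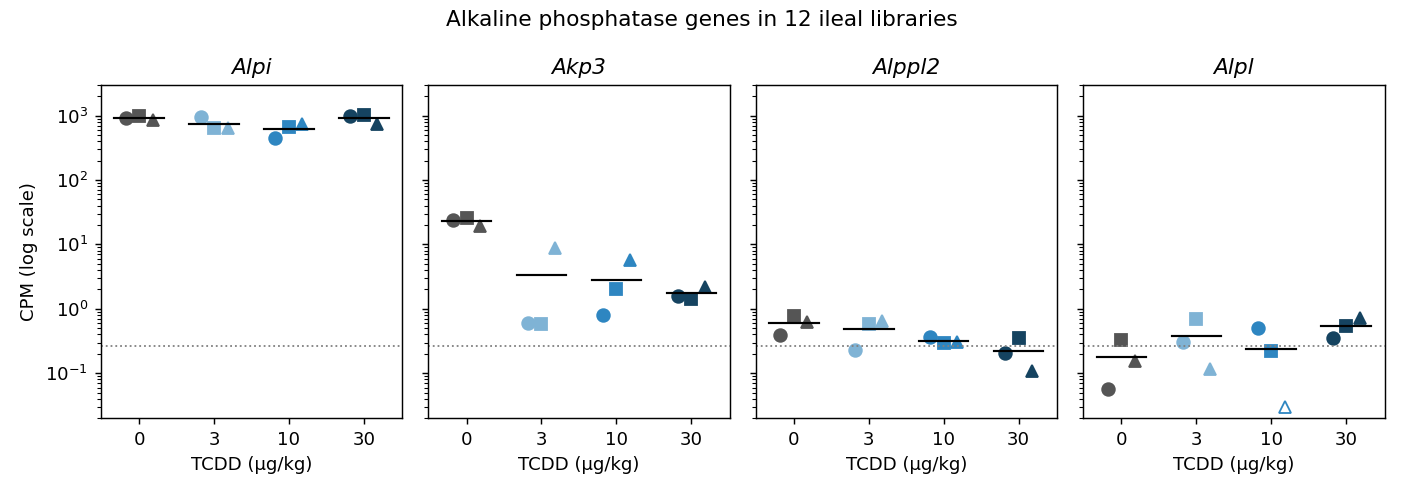
CPM on a log axis for the 4 alkaline phosphatase genes by TCDD dose; each symbol is 1 library (circle, square and triangle for replicates 1, 2 and 3), bars are means of 3, the dotted line is the highest detection floor (0.267 CPM), and the open triangle is a library at 0. Alpi stayed between 449 and 1015 CPM, Akp3 was lower in all 9 TCDD libraries than in vehicle, and Alppl2 and Alpl lay about the floor.

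Akp3 was lower at all 3 doses than in vehicle, and the lowest dose already showed the low level. In vehicle, Akp3 was at 23.9, 25.6 and 19.3 CPM. The libraries of 3 µg/kg held 0.604, 0.584 and 8.75 CPM, and those of 10 µg/kg held 0.792, 2.03 and 5.70 CPM. The highest dose left 1.58, 1.42 and 2.19 CPM. No TCDD library reached the lowest vehicle library, a pattern that 1.23% of the 15823 genes tested shared and that follows in part from the choice of the gene. The counts behind these levels were 367 to 554 in vehicle and 8 to 149 under TCDD, all above the floor of 3.

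The fitted log2 changes of Akp3 against vehicle were -2.75 (SE 0.76) at 3 µg/kg, -2.98 (SE 0.77) at 10 µg/kg and -3.70 (SE 0.82) at 30 µg/kg. As folds these were 6.75, 7.88 and 13.0 times lower than vehicle. The 3 contrasts share the vehicle libraries, so they are set side by side and carry no test. Among 11196 genes with a mean count of at least 50, Akp3 ranked 3 by fall at 30 µg/kg, between the immunoglobulin genes Ighg2b (-3.85) and Ighd (-3.69).

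A difference of Akp3 between 3 and 10 µg/kg was not detected. This comparison shares no library with the one that chose the gene. The log2 change was -0.22 (SE 0.82, 95% interval -2.00 to 1.55) and its adjusted p in edgeR was 1.00. The interval spans more than a doubling in either direction, so equal levels were not shown. Without replicate 3 of 3 µg/kg the value turned to 2.30 (SE 0.69, unadjusted p 0.0065 and adjusted p 1.00), and without replicate 1 of 10 µg/kg it turned to 0.21.

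Akp3 varied widely among mice of 1 dose. Its SD within the TCDD doses was 1.45 on the log2 CPM scale, against a median of 0.32 for the 3813 genes with a mean count from 20 to 100 in the TCDD libraries, where Akp3 had a mean of 42.9, and exceeded 99.5% of them. The spread was 1.33-fold from lowest to highest in vehicle, 14.98-fold at 3 µg/kg, 7.19-fold at 10 µg/kg and 1.54-fold at 30 µg/kg. Replicate 3 held the highest level at each TCDD dose. Leaving out replicate 3 of 3 µg/kg moved the log2 change at that dose against vehicle from -2.75 to -5.27.

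Within each TCDD dose, the library with the most Akp3 was the one with the least Cyp1a1. Cyp1a1 encodes the AhR-induced cytochrome P450 1A1 and was looked at as a check of dosing, and its order against Akp3 was noticed after both were seen. At 3 µg/kg Cyp1a1 was at 141, 68.8 and 22.2 CPM, so that replicate 3, which kept 8.75 CPM of Akp3, lay inside the vehicle range of 19.0 to 27.5 CPM. At 10 µg/kg it was at 1333, 1019 and 872 CPM, the reverse of the order of Akp3. At 30 µg/kg it was at 3088, 3251 and 2608 CPM, again the reverse of Akp3. In vehicle the order was the same for both genes. With 3 libraries a dose this is a description.

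**Figure D2:**
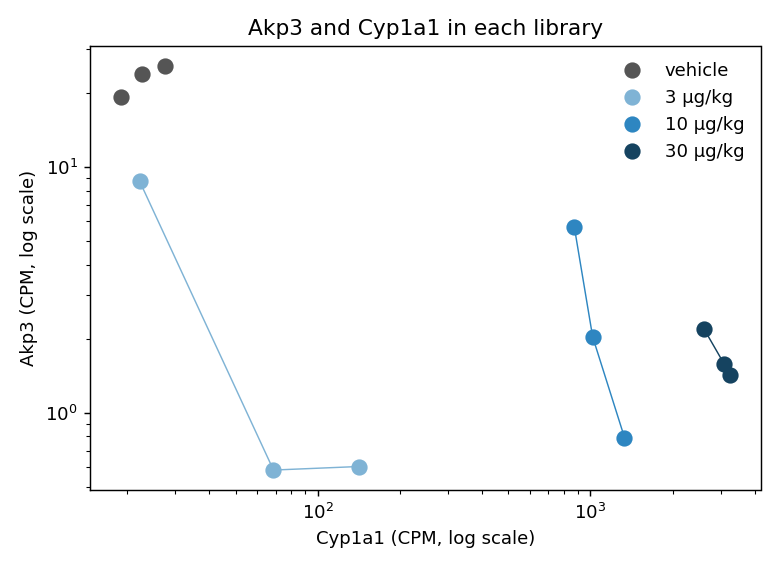
Akp3 against Cyp1a1, both in CPM on log axes, 1 point per library coloured by TCDD dose, with lines joining the 3 libraries of a TCDD dose. Within each TCDD dose the leftmost point (least Cyp1a1, 22.2, 872 and 2608 CPM) is also the highest in Akp3 (8.75, 5.70 and 2.19 CPM).

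Other measures moved with the same libraries. The 3 replicates numbered 3 also had the lowest clock score of their TCDD dose, -1.58, -2.28 and -0.92, where the score is the mean standardised level of 8 genes of the Dbp side of the circadian clock minus that of 4 genes of the Arntl side. They shared a library index as well. Each index occurred once per dose, and within the 3 indexes Akp3 was lower than its vehicle library by 39.5, 43.9 and 2.20 times at 3 µg/kg, by 30.1, 12.6 and 3.39 times at 10 µg/kg and by 15.1, 18.0 and 8.80 times at 30 µg/kg. With the index as a covariate, chosen after seeing the data, the log2 changes of Akp3 were -3.43 (SE 0.70), -3.45 (SE 0.70) and -3.96 (SE 0.72) for the rising doses, and with the clock score as a covariate they were -3.34 (SE 0.70), -3.66 (SE 0.74) and -3.89 (SE 0.69).

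Alpi did not share the low level of Akp3 at 30 µg/kg. In vehicle Alpi was at 921, 971 and 855 CPM, and at 3 µg/kg at 956, 650 and 638 CPM. It was at 449, 676 and 739 CPM at 10 µg/kg, and at 999, 1015 and 742 CPM at 30 µg/kg. In CPM, only at 10 µg/kg did all 3 libraries lie below vehicle, as was the case for 11.0% of all genes tested. For 10 µg/kg edgeR gave a log2 change of -0.56 (SE 0.20, 95% interval -0.995 to -0.12) with an unadjusted p of 0.016 and an adjusted p of 0.21, which did not pass. Across the other settings its adjusted p ran from 0.10 to 0.39.

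At 3 µg/kg the log2 change of Alpi was -0.29 (SE 0.20, interval -0.73 to 0.14, adjusted p 0.61 in edgeR). The change from 3 to 10 µg/kg was -0.27 (SE 0.20, interval -0.70 to 0.17, adjusted p 1.00 in edgeR). At 30 µg/kg the value was 0.01 (SE 0.20), given without a test because that contrast chose the genes. None of the tested changes of Alpi passed, and the intervals leave room for a log2 change of -0.995 at 10 µg/kg. Over all genes the call rate of 3 µg/kg was 0.228%, that of 10 µg/kg 0.613% and that between these doses 0.158%.

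**Figure D3:**
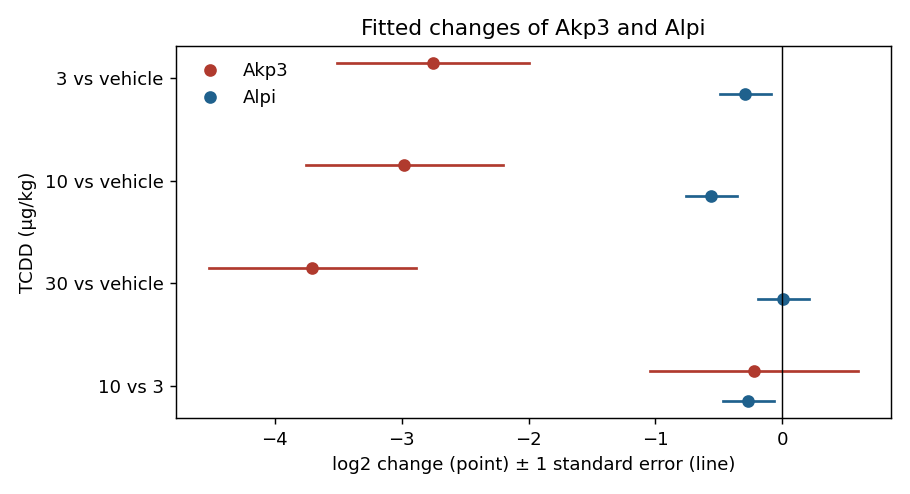
Fitted log2 changes of Akp3 (red) and Alpi (blue) for each TCDD dose against vehicle and for 10 against 3 µg/kg; lines are 1 standard error to each side. Akp3 lies at -2.75, -2.98 and -3.70 against vehicle and near 0 between 3 and 10 µg/kg, and Alpi lies between -0.56 and 0.01 throughout.

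The make-up of the family shifted further towards Alpi. Akp3 gave 2.20 to 2.57% of the reads of the 4 genes in vehicle, 0.0631 to 1.35% at 3 µg/kg, 0.176 to 0.765% at 10 µg/kg and 0.140 to 0.294% at 30 µg/kg. The lowest vehicle share was 2.20% (Wilson 95% interval 1.99 to 2.44) and the highest TCDD share 1.35% (1.15 to 1.58). These shares are not moved by library scaling. Alpi gave 97.3 to 97.7% of the reads in vehicle and 99.6 to 99.8% at 30 µg/kg.

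The summed transcripts of the brush border overlapped between vehicle and the highest dose. The 16 genes of brush border structure, such as Vil1 (villin) and Pls1 (plastin 1), summed to 16821 to 18976 CPM in vehicle and 17189 to 19077 CPM at 30 µg/kg. Per 1000 counts of these genes there were 1.03 to 1.42 counts of Akp3 in vehicle, 0.0266 to 0.543 at 3 µg/kg, 0.0432 to 0.341 at 10 µg/kg and 0.0745 to 0.127 at 30 µg/kg. Alpi had 45.8 to 54.7 such counts in vehicle and 43.2 to 53.8 at 30 µg/kg. At 3 µg/kg Alpi had 39.6 to 42.1 and at 10 µg/kg 24.5 to 44.3, below every vehicle library. How many of all genes do so on this ratio was not computed. None of the 16 genes was called in any of the 4 comparisons, where 0.228, 0.613 and 3.97% of all genes were called at the rising doses and 0.158% between 3 and 10 µg/kg, so that 0 does not set them apart. Vil1 was at 3031 to 3399 CPM in vehicle and 3481 to 3709 CPM at 30 µg/kg, with a log2 difference of 0.14 (SE 0.13). These Vil1 ranges did not overlap, as was the case upward for 14.2% of all genes tested.

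Region markers and pancreatic transcripts differed between the groups and are set beside Akp3. Fabp6, which encodes the ileal bile acid binding protein, was at 38.3, 32.5 and 22.9 CPM at 3 µg/kg and at most 0.306 CPM in the other 9 libraries, which leaves a defining ileal gene near 0 in them. It was called at 3 µg/kg against vehicle (log2 8.68, SE 0.40) and between 3 and 10 µg/kg (-7.21, SE 0.36). Fgf15, the hormone of ileal enterocytes induced by bile acids, had 24 to 32 counts at 3 µg/kg and at most 3 elsewhere. Slc10a2, the bile acid importer of ileal enterocytes, had 8 to 51 counts in vehicle, 93 to 218 at 3 µg/kg and 11 to 30 at the higher doses. Within 3 µg/kg the library with the most Akp3 had the least Fabp6. Over the whole list of 10 distal enterocyte genes the sums overlapped, 3575 to 6551 CPM in vehicle and 4810 to 5563 CPM at 3 µg/kg. Fabp6 gave at most 38.3 CPM of these sums, so they cannot show its change.

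The 12 genes listed as markers of proximal enterocytes summed to 18193 to 20570 CPM in vehicle, 13633 to 21503 CPM at 3 µg/kg, 15568 to 17798 CPM at 10 µg/kg and 17050 to 23688 CPM at 30 µg/kg. Of these, Slc40a1 (ferroportin, the iron exporter) was the only called gene, lower at 30 µg/kg by a log2 value of -1.06 (SE 0.22). Pnlip, pancreatic lipase, was at 1.13 to 1.30 CPM in vehicle, at 0 in all 3 libraries of 3 µg/kg, at 0.288 to 0.490 CPM at 10 µg/kg and at 0 to 0.178 CPM at 30 µg/kg. Ctrb1 (chymotrypsinogen) was at 1.92 to 2.68 CPM in vehicle and at 0 to 0.889 CPM in the TCDD libraries, and the 6 acinar genes summed to 7.36 to 9.30 CPM in vehicle and 2.34 to 5.88 CPM under TCDD. Cpa1 and Prss2 were also highest in vehicle, whereas Cela1 averaged 3.06 CPM in vehicle and 3.79 CPM at 10 µg/kg, and Amy2a5 averaged 0.306 and 0.404 CPM. The part of sampling along the gut in the level of Akp3 was not tested.

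**Figure D4:**
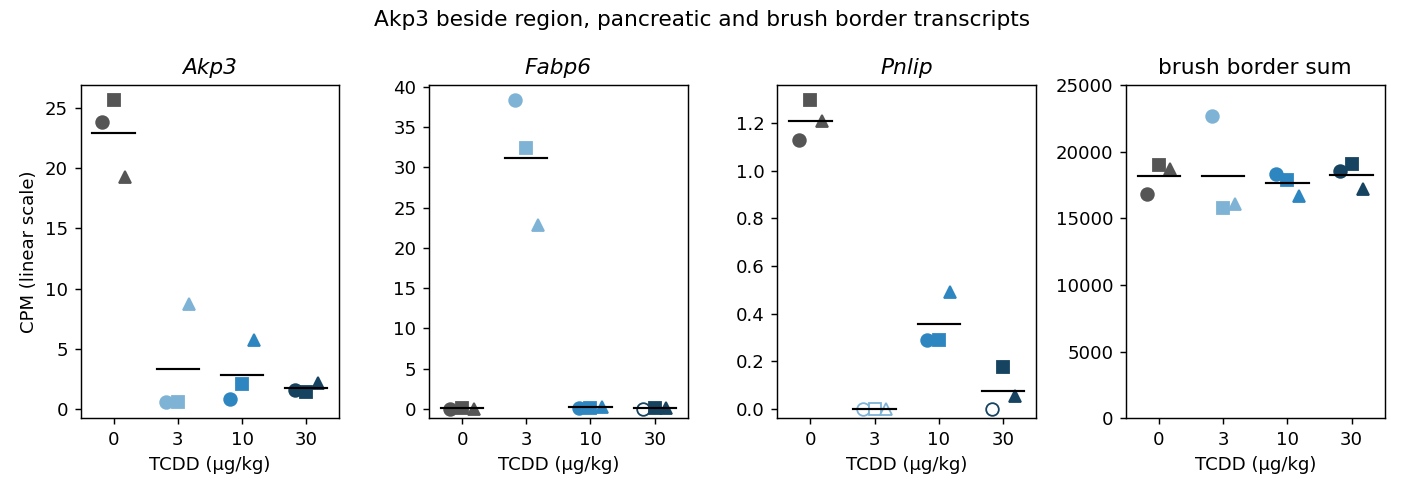
CPM on linear axes by TCDD dose for Akp3, Fabp6, Pnlip and the sum of 16 brush border genes; symbols are libraries (circle, square and triangle for replicates 1, 2 and 3, open where the value is 0) and bars are means of 3. Akp3 and Pnlip are highest in vehicle, and the brush border sum lies between 15743 and 22703 CPM. Fabp6 is at 22.9 to 38.3 CPM at 3 µg/kg and at most 0.306 CPM in the other groups.

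Other cell types differed at 30 µg/kg. The 8 Paneth genes were all called higher there, with a median log2 change of 1.67, and summed to 2359 to 3172 CPM against 727 to 1110 CPM in vehicle. In the goblet list 4 of 8 genes were called higher and in the enteroendocrine list 6 of 8. The goblet sums overlapped, 12772 to 16703 CPM in vehicle and 16431 to 17866 CPM at 30 µg/kg. The enteroendocrine sums were 131 to 143 CPM and 212 to 244 CPM. Of 6 tested genes of T and intraepithelial lymphocytes 2 were called higher, Cd3g and Gzmb. The 8 B and plasma cell genes had a median log2 value of -1.50 at 30 µg/kg with 0 called, and their sums overlapped, 357 to 875 CPM in vehicle and 503 to 623 CPM at that dose. The villus tip and lower villus lists of enterocytes had no called gene in any comparison. Of all genes tested at this dose 3.97% were called, 3.08% upward and 0.891% downward. The part of these shifts in the level of Akp3 was not tested.

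Alpl was detected by few reads. It had 1, 7 and 3 counts in vehicle, and 4, 12 and 2 counts at 3 µg/kg. The libraries of 10 µg/kg held 7, 3 and 0 counts, and those of 30 µg/kg held 7, 6 and 13. After scaling, the 3 libraries of 30 µg/kg (0.357 to 0.712 CPM) lay just above the highest vehicle library (0.324 CPM), as did those of 14.2% of all genes tested, while the raw counts overlapped. The pooled levels were 0.530 CPM (Poisson 95% interval 0.346 to 0.776) at 30 µg/kg and 0.188 CPM (0.0941 to 0.337) in vehicle, given as a description. Alpl did not pass the filter on low counts. Fitted without that filter, its log2 change was 0.99 (SE 0.84) at 3 µg/kg, 0.33 (SE 0.91) at 10 µg/kg and -0.66 (SE 0.85) between them, with adjusted p of 0.80, 0.97 and 1.00 in edgeR. A change of Alpl was not detectable at this depth.

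Alppl2 also fell under the filter. It was at 0.395, 0.787 and 0.630 CPM in vehicle, at 0.226, 0.584 and 0.646 CPM at 3 µg/kg, at 0.360, 0.290 and 0.306 CPM at 10 µg/kg and at 0.204, 0.355 and 0.1095 CPM at 30 µg/kg. All libraries of 10 and 30 µg/kg were below the lowest vehicle library, as for 11.0 and 12.5% of all genes tested, and on 2 to 5 counts each. The lincRNA Gm29371 overlaps Alppl2 on the other strand, and without a stated strand setting their reads cannot be told apart.

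Around Akp3, 18 genes start within 200 kb, itself included, and 6 passed the filter. Besides Akp3 and Alpi these were Eif4e2 (a cap-binding protein), Efhd1 (a calcium-binding mitochondrial protein) and the uncharacterised transcripts Gm37017 and Gm37447. Eif4e2, 88.9 kb away, was at 42.2 to 52.3 CPM in vehicle and 48.2 to 53.2 CPM at 30 µg/kg (log2 0.06, SE 0.10). Efhd1 was at 0 to 1.48 CPM over the libraries. Gm37017 was at 0.324 to 0.790 CPM in vehicle and 0.817 to 1.37 CPM at 30 µg/kg, and Gm37447 at 0.893 to 2.04 CPM and 2.24 to 2.49 CPM. None of these 4 genes was called in any comparison, where 0.158 to 3.97% of all genes were called, so that 0 does not set them apart. The pseudogene Akp-ps1 had at most 2 counts, and 5 genes had none in any library. Akp3 was chosen by its fall at 30 µg/kg, so it is not set against these genes by a call.

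**Figure D5:**
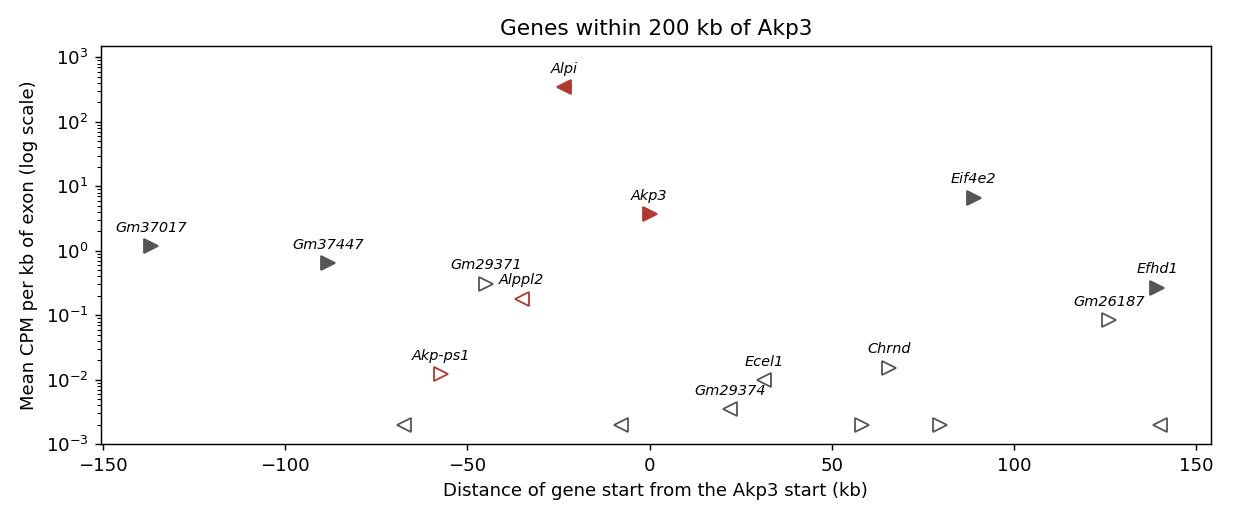
Mean CPM per kb of merged exon over 12 libraries (log axis) against the distance of each gene's start from that of Akp3 in kb; triangles point in the direction of transcription, red marks alkaline phosphatase genes and their pseudogene, filled symbols passed the filter on low counts, and the 5 unlabelled symbols at the bottom are genes without a count. Alpi is the highest at 343 CPM per kb, Eif4e2 follows at 6.63 and Akp3 at 3.67.

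Genes reported to regulate intestinal alkaline phosphatase were all expressed, and none changed by 1.5-fold with an adjusted p under 0.05. The list held 11 transcription factors, all tested, of which 0 were called in any comparison, near the share of all genes (3.97% at 30 µg/kg and under 1% in the others). Klf5, a Krüppel-like factor of crypt cells, was at 307 to 349 CPM in vehicle and 446 to 482 CPM at 30 µg/kg. Its log2 change of 0.51 (SE 0.09, adjusted p 0.0061 in edgeR) passed the p threshold but stayed under 1.5-fold. Klf4, a factor of differentiated enterocytes and goblet cells, was at 300 to 449 CPM in vehicle and 422 to 452 CPM at 30 µg/kg (log2 0.17, SE 0.15). Cdx1 (log2 0.26, SE 0.09) and Cdx2 (log2 -0.15, SE 0.15), the caudal homeobox factors of intestinal identity, had adjusted p of 0.13 and 0.61 in edgeR at that dose.

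The nuclear receptors Hnf4a (log2 -0.08) and Hnf4g (0.16) and the zinc finger factors Gata4 (0.04) and Zfp148 (-0.16) were within 0.16 of vehicle at 30 µg/kg. Thra, the thyroid hormone receptor alpha, had the lowest value at -0.38 (SE 0.12, adjusted p 0.079 in edgeR), and its partner Rxra was at 0.03. At 3 and 10 µg/kg the 11 log2 changes lay between -0.13 and 0.13 and between -0.28 and 0.26.

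The wider pathway lists held 119 genes, of which 110 were tested. In edgeR 0 passed at 3 µg/kg, 0 at 10 µg/kg and 0 between these doses. In these comparisons 5, 16 and 2 of the 110 had an unadjusted p under 0.05, beside 1800, 2511 and 522 of all 15823 genes. DESeq2 called 0, 1 and 0 of them, beside 84, 262 and 43 over all genes. The highest dose gave 3 calls in edgeR, 2 of them upward and 1 downward, which is 2.73% beside 3.97% over all genes. Their median log2 change at 30 µg/kg was 0.03, beside -0.02 over all genes. Of the 110 genes, 0 were called without replicate 3 of vehicle or without replicate 1 of 30 µg/kg, and without replicate 2 of vehicle 1 was called, Cd24a, which is not one of the 3. Over the 6 fits that left out a library of the comparison, the log2 change ran from -1.58 to -1.13 for Abcc6, from 0.95 to 1.42 for Tlr2 and from 2.51 to 3.36 for Ly6g6c. The call was kept in 2 of these 6 fits for Abcc6, in 1 for Tlr2 and in 1 for Ly6g6c.

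Abcc6, the transporter whose activity supplies extracellular pyrophosphate, a substrate of alkaline phosphatase, was the gene called lower. It was at 20.1, 25.9 and 29.4 CPM in vehicle, 26.6, 13.2 and 11.6 CPM at 3 µg/kg, 12.1, 10.7 and 9.13 CPM at 10 µg/kg and 8.68, 14.4 and 8.10 CPM at 30 µg/kg. The libraries of 10 and 30 µg/kg all lay below vehicle, as for 11.0 and 12.5% of all genes. Its log2 change was -1.29 (SE 0.30, adjusted p 0.024 in edgeR) at 30 µg/kg and -1.24 (SE 0.30, adjusted p 0.091) at 10 µg/kg. The other 6 tested genes of pyrophosphate and vitamin B6 phosphate metabolism were not called.

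Tlr2, a receptor for bacterial lipoproteins, rose at 30 µg/kg from 0.788 to 1.06 CPM in vehicle to 1.51 to 2.91 CPM, with a log2 change of 1.24 (SE 0.34, adjusted p 0.049 in edgeR), a call that was lost with upper-quartile scaling and with the compared groups alone, among other settings. It was the only call among 14 tested genes of lipopolysaccharide sensing and breakdown, and Tlr4, the lipopolysaccharide receptor itself, was not called. Ly6g6c, a GPI-anchored surface protein, was at 0.368 to 0.787 CPM in vehicle and 5.72, 5.07 and 1.15 CPM at 30 µg/kg, for a fitted log2 value of 2.90 (SE 0.75, adjusted p 0.041 in edgeR). It was the only call among 14 tested GPI-anchored proteins.

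In GPI anchor synthesis and attachment 0 of 28 tested genes were called in any comparison of the main fit. Over all genes 0.158 to 3.97% were called per comparison, so that 0 does not set this list apart. At 30 µg/kg the median log2 change was -0.01, with a range from -0.51 to 2.20. Pigz of this list was called at that dose in DESeq2, without the low-count filter and without replicate 3 of 30 µg/kg. Pigt, a subunit of the transamidase that attaches the anchor, was at 101 to 116 CPM in vehicle and 109 to 112 CPM at 30 µg/kg. Pigq, of the first step of anchor synthesis, was at 52.1 to 56.3 CPM and 49.4 to 58.7 CPM. Other surface phosphohydrolases gave 0 calls among 16 tested genes. Enpp7, the alkaline sphingomyelinase, was at 993 to 1111 CPM in vehicle and 974 to 1146 CPM at 30 µg/kg. Enpp3, an ecto-nucleotide pyrophosphatase, was at 605 to 685 CPM and 780 to 1041 CPM (log2 0.55, SE 0.17, adjusted p 0.083 in edgeR).

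Phosphate transport gave 0 calls among 7 tested genes, beside 0.158 to 3.97% of all genes called per comparison. Slc34a2, the sodium phosphate cotransporter of the small intestine, was at 1619, 197 and 183 CPM in vehicle and at 501, 688 and 1554 CPM at 30 µg/kg, so that the groups overlapped (log2 0.46, SE 0.92). Once the clock score entered the fit, the log2 change was 0.84 (SE 0.13, adjusted p 0.00086 in edgeR) and the gene was called. Xpr1, the phosphate exporter, was at 186 to 196 CPM in vehicle and 140 to 153 CPM at 30 µg/kg (log2 -0.37, SE 0.11, adjusted p 0.074 in edgeR).

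The genes whose pattern over the 12 libraries was most like that of Akp3 were AI838599 (Pearson r 0.89 of log2 CPM), Bicd2 (0.88), Anks1 (0.87), Rtp4 (0.86) and Ripk2 (0.85), out of 11196 genes compared. Over the 9 TCDD libraries alone r was 0.79, 0.85, 0.56, 0.78 and 0.73. Their range was far narrower than that of Akp3, and Bicd2, for example, went from 12.5 to 15.3 CPM in vehicle to 9.06 to 13.6 CPM under TCDD. For Alpi they were Abhd14b (0.91), Prelid1 (0.90) and Rnaset2a (0.90). For Alpl, whose counts barely pass the floor, they were Slc6a7 (0.80), Vsir (0.79) and Rnf157 (0.76). The libraries share dose and scaling, so these values are descriptions.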

How the data were processed

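RNA of scraped proximal ileal epithelium was sequenced in 12 libraries, 4 groups of 3. The authors deposited, for each library, unnormalised counts of reads for every Ensembl gene. The submitters' processing notes name FastQC 0.11.3, Trimmomatic 0.33, TopHat2 2.1.0, SAMtools 1.2.0, HTSeq 0.6.1, DESeq and GRCm38. The annotation release, read length and strand setting are not given in the sources used here. Reads with several alignments (31.4 to 38.8% of reads per library) or no gene (25.0 to 30.1%) stood in entries of their own, which entered neither library sizes nor tests. Symbols and positions came from GENCODE M21, and genes without a symbol held 0.749% of the counts.

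Counts were fitted with edgeR 4.0.16 in R 4.3.3 (filterByExpr, TMM scaling, quasi-likelihood, 1 model with 4 groups), which tested 15823 genes. P-values were adjusted by Benjamini-Hochberg over these genes, and a gene was called at an adjusted p under 0.05 and a change of at least 1.5-fold. CPM used TMM-scaled library sizes, and log2 CPM a prior count of 2. The fit was tested on simulated data. Group levels are means ± SD over libraries. The labels name no cages or litters, so p-values measure the spread between these samples. Libraries were grouped by the labelled dose and numbered here in accession order.

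The members and gene lists were chosen with earlier results of these data known. Named genes were the 3 members and Alppl2, the tested regulators (1 is not reported here), up to 4 called genes of each other pathway list or else its 2 most abundant, the tested genes within 200 kb of Akp3, the 5 (Akp3) or 3 (Alpi, Alpl) genes of highest r with a mean count of at least 50, and up to 3 called genes of a marker list. Alternatives were DESeq2 1.42.0, other scalings and filters, the compared groups alone, the clock score or library index as a covariate, leaving out each library, and other gene lengths.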

Additional observations from a re-analysis of the deposited data

How the results depend on the processing

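No paired analysis was possible because the labels give no replicate numbers that tie animals across doses. The library index, which occurred once per dose and says nothing of animals, was fitted as a covariate, and with it the log2 change of Akp3 from 3 to 10 µg/kg was -0.02 (SE 0.74). Akp3 stayed lower than vehicle at each dose under every other setting run. Setting 10 counts in every sample as the filter removed Akp3 and gave no value. Leaving out each library in turn, its log2 change against vehicle was between -5.27 and -2.25 at 3 µg/kg, the lowest without replicate 3 of that dose. Between 3 and 10 µg/kg the same range was -1.25 to 2.30, turning to 2.30 without replicate 3 of 3 µg/kg and to 0.21 without replicate 1 of 10 µg/kg. None of the latter passed the threshold. Alpi kept its direction at 3 and 10 µg/kg and its side of the threshold in all of them. With the longest transcript as length, Akp3 in vehicle was at 13.6 CPM per kb, against 10.9 with merged exons.

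Of the 110 pathway genes, 1 (Abcc6) was called at 10 µg/kg without the low-count filter, with the compared groups alone, with scaling by brush border genes, without replicate 1 of 3 µg/kg and in DESeq2. At 30 µg/kg 5 were called once the clock score entered the fit, Slc34a2 among them, and 0 to 2 when a library of the comparison was left out. Over all genes, the 36 calls at 3 µg/kg became 6 to 84 under other settings (6 with the compared groups alone, 18 with the library index, which was added after seeing the data) and 19 to 164 with a library left out. The 97 calls at 10 µg/kg became 59 to 262 and 45 to 72, the 25 between 3 and 10 µg/kg became 13 to 43 and 9 to 21, and the 628 at 30 µg/kg stayed between 435 and 859. Where a value moved, the cause was not tested. Depth limits Alpl and Alppl2, at 0 to 17 counts per library.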

Other observations

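Slc34a2, the main sodium phosphate cotransporter gene listed with the alkaline phosphatases, followed the clock score of the libraries across doses, a pattern noticed after its values were seen. In the 6 libraries with a negative score it was at 1236 to 1861 CPM, and in the 6 with a positive score at 183 to 688 CPM. Each dose held libraries of both kinds. Over the same division Akp3 was at 0.584 to 23.9 and 0.604 to 25.6 CPM, and Alpi at 638 to 921 and 449 to 1015 CPM. Both sides held vehicle and TCDD libraries, so the overlap for Akp3 cannot show whether Akp3 went with the score. Within each group the mean of Akp3 was higher with a negative score. At 10 µg/kg Akp3 was at 2.03 and 5.70 against 0.792 CPM. At 30 µg/kg it was at 2.19 against 1.58 and 1.42 CPM. At 3 µg/kg (0.584 and 8.75 against 0.604 CPM) and in vehicle (23.9 against 25.6 and 19.3 CPM) the libraries overlapped.

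Tmigd1, a brush border adhesion protein of the distal enterocyte list, was at 24.7 to 32.2 CPM in vehicle and 99.6 to 143 CPM at 30 µg/kg, which edgeR called at a log2 value of 2.08 (SE 0.22). It was the only gene of that list called at this dose, where Fabp6 and Fgf15 had 0 to 2 counts per library.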
